A study of Arabidopsis thaliana with 10 samples.

Results

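The ERF and DREB transcription factors examined here are 50 genes of Arabidopsis thaliana, chosen by AGI identifier from a fixed list of ERF, CRF, DREB/CBF and related AP2/ERF genes outside the low-oxygen, RAV and cuticle groups. All 50 were found among the 33559 genes listed. Etiolated seedlings were kept in darkness at 22 °C for 3 days with no treatment, after a short light pulse to start germination, and were harvested without roots. Every genotype was in the Col-0 background. Col-0 itself was the wild type, and hls1 carries a mutation in HOOKLESS1, a gene needed to form the apical hook. The pifq line is mutant in PIF1, PIF3, PIF4 and PIF5, bHLH proteins of the light-signalling pathway that promote growth in darkness. The ein3 eil1 line is mutant in EIN3 and EIL1, which switch on the ethylene response in the nucleus, and pifq ein3 eil1 carries both sets of mutations. There were 2 biological replicates for each of 5 genotypes, 10 samples in all, but the values were given by the authors as 1 RPKM per gene and genotype (a read count divided by gene length and library size). How far the replicates differ cannot be seen from these values, so no difference could be tested and no value below carries an error. Here "higher" and "lower" are used of a difference of at least 1 in log2(RPKM + 1), which is a 2-fold difference in RPKM + 1; a gene past it is said to be called, by a rule of size and not a test. Members were compared only if they reached 1 RPKM in at least 1 genotype, as did 37 of the 50 members and 18581 of all genes.

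ERF and DREB proteins bind DNA through a single conserved AP2 domain. ERF proteins typically recognise the GCC box of defence genes, whereas DREB proteins recognise the dehydration-responsive element found in cold- and drought-induced genes. EIN3 and EIL1 activate ERF1 and other ERF genes in the classical ethylene pathway, and many ERF genes also respond within minutes to wounding, touch, cold or pathogens. The cytokinin response factors (CRFs) are a further branch of the family, and 8 of the ERFs here are repressors that carry an EAR motif.

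The mutated genes were read first as a check on the columns. EIN3 stood at 84.0 RPKM in Col-0 against 17.9 and 13.3 in ein3 eil1 and pifq ein3 eil1, and PIF3 at 35.1 against 5.61 and 2.35 in pifq and pifq ein3 eil1. PIF3 was also lower in ein3 eil1 than in Col-0, though not mutated there, so its drop is not particular to the pifq lines. HLS1 was lower than in Col-0 in ein3 eil1 and pifq ein3 eil1. HLS1 in hls1, at 6.28 RPKM against 11.2, and PIF1 in pifq, at 18.2 against 19.0, were not called, and PIF4 stood at 8.69 RPKM in pifq against 4.36, so the levels of these transcripts do not check the mutations; the alleles are not named in the labels. Column sums ran from 735471 to 912075 RPKM. Set against Col-0, the median gene differed on the log2 scale by 0.04 in hls1, and by -0.29, -0.05 and -0.17 in ein3 eil1, pifq and pifq ein3 eil1. The dark-grown marker genes PORA and PORB were abundant in Col-0, with PORA at 2089 RPKM. Root transcripts were not absent although roots were left out: the root endodermal gene CASP1 stood at 83.8 RPKM in Col-0. In these seedlings, sampled in bulk, fewer cells of a type and less RNA per cell cannot be told apart.

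The 50 genes covered a wide range of levels. RPKM are scaled to gene length, so levels may be set side by side. The highest mean level over the 5 genotypes was that of RAP2.4 (AT1G78080), a DREB-type factor also known as the wound-induced WIND1, which stood at 55.6 RPKM in Col-0 and 69.5 in hls1, 47.3 in ein3 eil1, and 54.6 and 51.9 in pifq and pifq ein3 eil1. ERF3 (AT1G50640), an EAR-motif repressor, followed at 44.2, 30.5, 35.6, 45.5 and 38.8 RPKM. This order, with hls1 after Col-0, then ein3 eil1, then pifq and lastly pifq ein3 eil1, holds wherever 5 values follow each other. ESE3 (AT5G25190), named for its induction by ethylene and salt, stood at 21.9, 30.7, 22.1, 22.3 and 17.1 RPKM. DEAR4 (AT4G36900), a DREB protein with an EAR motif, stood at 25.2, 16.1, 23.0, 17.3 and 21.5 RPKM, and the repressor ERF7 (AT3G20310) at 18.1, 22.0, 16.5, 17.7 and 15.6 RPKM. None of these abundant members was called in any of the 6 comparisons between genotypes. These 5 were also the members that held 10 RPKM or more in every genotype.

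**Figure D1:**
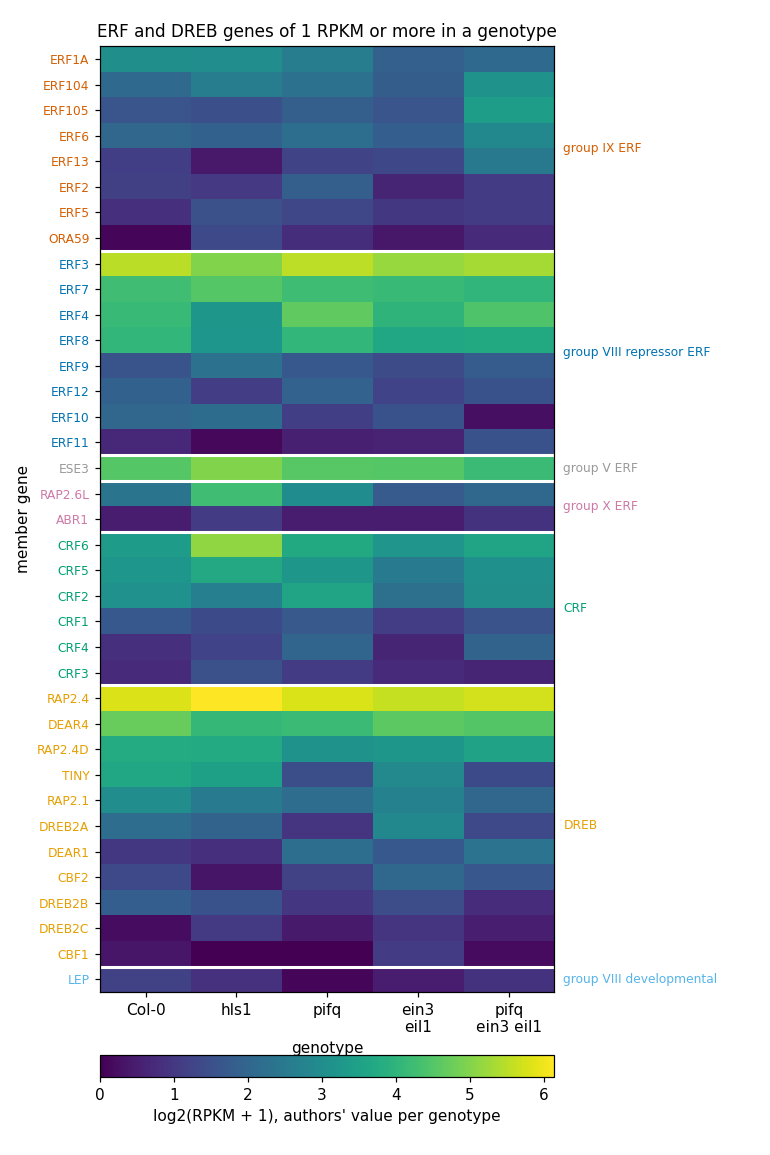
Colour gives log2(RPKM + 1) of each of the 37 members past the filter (rows, grouped by branch of the family) in the 5 genotypes (columns), 1 authors' value per cell of the plot. RAP2.4 is the brightest row in every genotype, whereas the brightest cells of CRF6 and RAP2.6L are in hls1 and those of ERF105 and ERF13 in pifq ein3 eil1.

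The other end of the range held the best-known ethylene markers of the family. ERF1 (AT3G23240), a direct target of EIN3, stood at 0.0397 RPKM in Col-0 and 0.157 in hls1 and was listed at 0 in the other genotypes. ESE1, ERF14 and ERF96 were listed at 0 in every genotype. In all, 13 members stayed under 1 RPKM everywhere, the highest value among them being 0.771 (DRN in hls1). They were ERF1, ESE1, ERF14, ERF15, ERF96 and ERF98 of group IX, RAP2.6, RRTF1, ERF112 and ERF114 of group X, CBF3, and the developmental genes DRN and PUCHI. In these dark-grown seedlings, then, the difference that ein3 eil1 makes to ERF1 could not be read, because Col-0 itself was near 0. The defensin genes PDF1.2a, PDF1.2b and PDF1.2c, activated by ERF1 and ORA59, were likewise listed at 0 in all 5 genotypes. The remaining pair of that target list was measured: HEL at 14.6 RPKM in Col-0 and 10.2 in ein3 eil1, and the chitinase gene HCHIB at 5.72 and 7.15; neither was called in ein3 eil1. In pifq HCHIB was lower, at 1.91 RPKM.

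Some members are neighbours. In the TAIR10.1 assembly, ESE1 (chr3:8287942-8288602), ERF98 (chr3:8289379-8290164) and ERF1 (chr3:8295617-8296604) lie 776 and 5452 bases apart, and none exceeded 0.236 RPKM in any genotype. ERF6 (chr4:9752824-9754161) and ERF1A (chr4:9759203-9760391) are 5041 bases apart, and ERF12 and ERF11 on chromosome 1 are 2668 bases apart. The CBF genes stand in a row on chromosome 4, with CBF2 (chr4:13015250-13016235) the most expressed and CBF3 (chr4:13018010-13019400) under 1 RPKM throughout. Their sequences are close, so the division of reads among CBF1, CBF2 and CBF3 is uncertain.

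Of the 37 compared members, 17 were called in at least 1 of the 6 comparisons, or 45.9%, against 20.3% of all genes tested. The median range of log2(RPKM + 1) over the 5 genotypes was 1.08 for the members and 0.76 for all genes tested. The members were also less expressed, with a median of mean RPKM of 3.06 against 10.2, and the part of their lower level in these shares was not tested. Of the 37, 21 reached 1 RPKM in every genotype and 6 (ORA59, ERF11, ABR1, DREB2C, CBF1 and LEP) in a single genotype; a call on one of these 6 rests on the genotype that carried it past the filter. The comparisons with Col-0 share the Col-0 values, and those of pifq ein3 eil1 share its values.

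Among the members, the largest differences in pifq were in the DREB branch. TINY (AT5G25810), a DREB factor of subgroup A-4 whose overexpression dwarfs plants and shortens the hypocotyl, stood at 11.6 RPKM in Col-0 and 10.3 in hls1, 6.47 in ein3 eil1, and 1.78 and 1.59 in pifq and pifq ein3 eil1. Its level was thus low in both genotypes without the PIFs and highest in Col-0 and hls1. The log2 difference from Col-0 was -2.19 in pifq, -2.29 in pifq ein3 eil1, and from ein3 eil1 to pifq ein3 eil1 it was -1.53. DREB2A (AT5G05410), an activator of drought and heat genes, stood at 3.57 RPKM in Col-0 and 2.90 in hls1, 6.33 in ein3 eil1, and 0.933 and 1.55 in pifq and pifq ein3 eil1. It was lower in pifq than in Col-0, with a difference of -1.24, and lower in pifq ein3 eil1 than in ein3 eil1, with a difference of -1.52. In pifq ein3 eil1 against Col-0 its difference of -0.84 was under the threshold, as was 0.68 in ein3 eil1 against Col-0. Its paralogue DREB2B (AT3G11020) stood at 2.54, 1.93, 1.74, 0.971 and 0.702 RPKM. It was called in pifq ein3 eil1 against Col-0, at -1.06, but median-of-ratios scaling brought this to -0.94, under the threshold. In pifq its difference was -0.85.

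One DREB gene went the other way. DEAR1 (AT3G50260), a DREB protein with an EAR motif that dampens cold responses, stood at 0.991 RPKM in Col-0 and 0.803 in hls1, 2.25 in ein3 eil1, and 3.69 and 4.07 in pifq and pifq ein3 eil1. It was higher than in Col-0 in pifq, with a difference of 1.24, and in pifq ein3 eil1, with a difference of 1.35. CRF4 (AT4G27950), of the cytokinin response factors, was the other higher member in pifq, at 2.99 RPKM against 0.761 and a difference of 1.18. It stood at 1.34 RPKM in hls1, 2.89 in pifq ein3 eil1 and 0.541 in ein3 eil1, so both genotypes without the PIFs were high and the others low. LEP (AT5G13910), named for the leafy petioles of plants that overexpress it, was the third lower member in pifq, at 0.0834 RPKM against 1.27. In all, pifq had 2 higher members of 37, or 5.41%, against 3.39% of all genes tested, and 3 lower ones (TINY, DREB2A and LEP), or 8.11%, against 6.22%. Both shares are near the background, and LEP passed the filter only through Col-0, its high value in this comparison. The median log2 difference of the 37 was 0.03, and that of the 11 compared DREB genes was -0.52, beside -0.05 for all genes. Root markers were also lower in pifq, 4 of 6 compared, and the summed RPKM of the 8 markers was 157 in Col-0 and 170.3 in hls1, 182 in ein3 eil1, and 28.0 and 44.1 in pifq and pifq ein3 eil1, with no marker at 0. Of the 4 dark-grown marker genes PORA, PORB, PIL1 and HFR1, 3 were lower in pifq and 4 in pifq ein3 eil1, their sums there being 1234 and 674.7 RPKM, against 3673 in Col-0. The part of either marker list in the values of TINY, DREB2A, the other members called in these genotypes and the DREB targets was not tested.

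**Figure D2:**
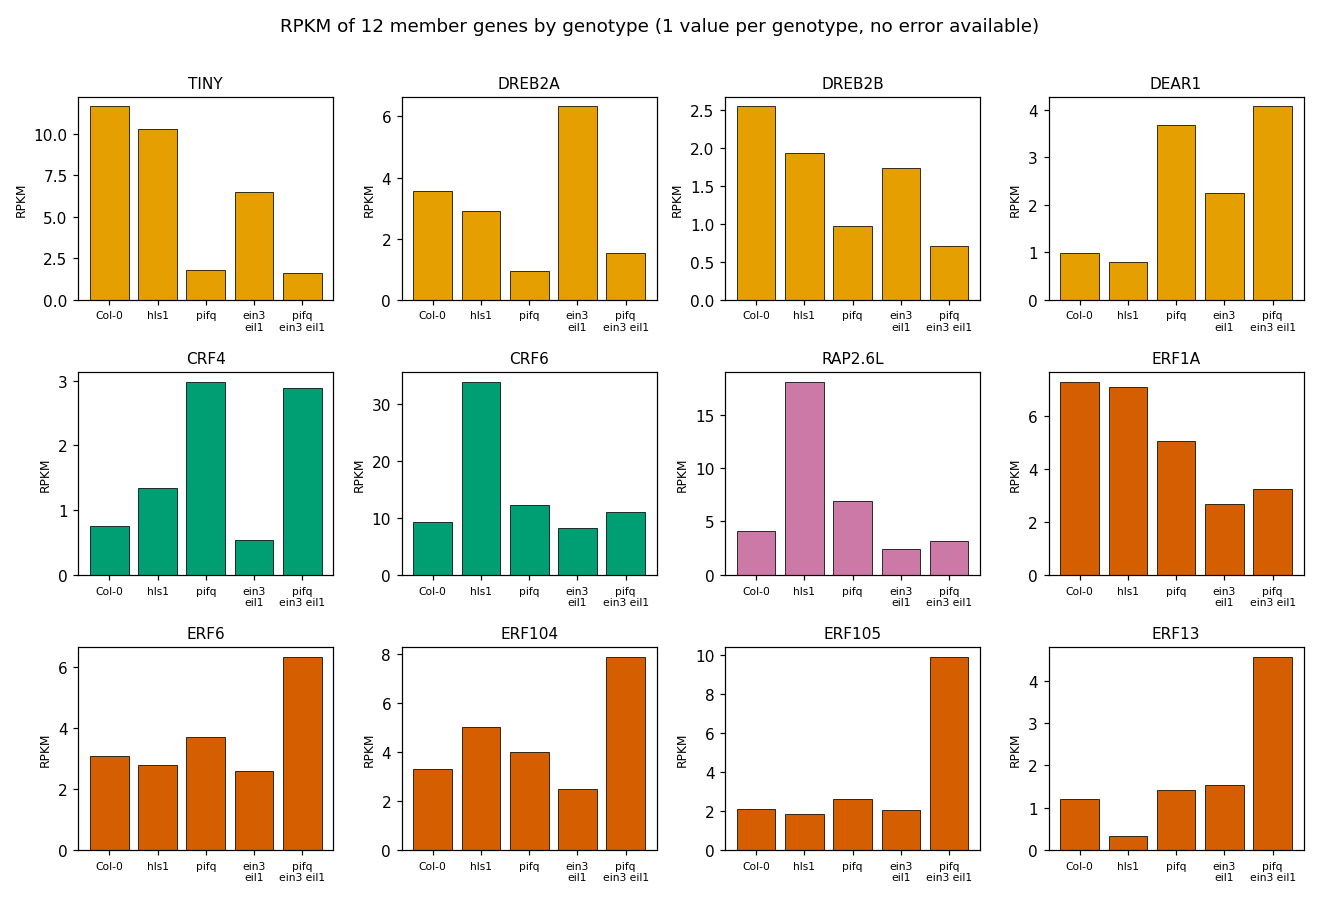
Bars give the authors' RPKM (vertical axis from 0, a scale of its own in each panel) of 12 members in the 5 genotypes, with no error because replicates were not given separately. TINY, DREB2A and DREB2B are low in pifq and pifq ein3 eil1, CRF6 and RAP2.6L peak in hls1, and ERF6, ERF104, ERF105 and ERF13 peak in pifq ein3 eil1.

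The windows of 250 bases before the RefSeq gene starts were read for 4 short motifs on both strands. These were the G-box CACGTG and the PBE-box CACATG, both bound by PIFs among other factors, the GCC box core GCCGCC and the dehydration-responsive element core CCGAC. No motif contains another. A G-box was found in 14 of the 50 member windows, or 28%, against 6.58% of 26694 windows of all protein-coding genes in the table. The GCC core was found in 5 member windows, or 10%, against 1.85%. The dehydration-responsive core was found in 9, or 18%, against 11.9%, and the PBE-box in 4, or 8%, against 11.2%. Of the 14 members with a G-box, 9 were past the filter and 5 under it. Of the 5 members lower in pifq or pifq ein3 eil1 than in Col-0 (TINY, DREB2A, DREB2B, LEP and ERF10), 1 had a G-box (DREB2B) and 0 a PBE-box. A match here is a description of letters and not a bound site. The windows of 5 genes are shown, from TAIR10.1 as distributed by RefSeq, 5′ to 3′ toward the gene, with the motif matches in capitals: TINY at chr5:8987899-8988148 (reverse strand), which had the largest difference in pifq and no match, DREB2B at chr3:3455105-3455354 (forward strand) with a G-box, CRF6 at chr3:22804748-22804997 (forward strand) with a G-box and a GCC core, ERF1A at chr4:9758953-9759202 (forward strand) with a G-box, and the DREB target RD29A at chr5:21240467-21240716 (forward strand) with a PBE-box and 3 dehydration-responsive cores.
TINY: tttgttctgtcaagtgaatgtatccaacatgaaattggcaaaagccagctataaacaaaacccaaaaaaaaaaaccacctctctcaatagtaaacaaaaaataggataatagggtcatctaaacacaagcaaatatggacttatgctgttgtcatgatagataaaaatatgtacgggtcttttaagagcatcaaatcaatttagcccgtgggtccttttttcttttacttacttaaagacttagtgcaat
DREB2B: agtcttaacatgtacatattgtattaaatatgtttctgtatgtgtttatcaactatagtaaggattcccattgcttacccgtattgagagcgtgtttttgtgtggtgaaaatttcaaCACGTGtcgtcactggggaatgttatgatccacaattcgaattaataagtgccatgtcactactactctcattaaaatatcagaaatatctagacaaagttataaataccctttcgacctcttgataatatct
CRF6: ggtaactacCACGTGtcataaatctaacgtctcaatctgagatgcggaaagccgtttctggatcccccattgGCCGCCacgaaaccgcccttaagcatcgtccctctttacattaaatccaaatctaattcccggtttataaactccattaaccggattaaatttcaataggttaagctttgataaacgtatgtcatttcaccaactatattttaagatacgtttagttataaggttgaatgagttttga
ERF1A: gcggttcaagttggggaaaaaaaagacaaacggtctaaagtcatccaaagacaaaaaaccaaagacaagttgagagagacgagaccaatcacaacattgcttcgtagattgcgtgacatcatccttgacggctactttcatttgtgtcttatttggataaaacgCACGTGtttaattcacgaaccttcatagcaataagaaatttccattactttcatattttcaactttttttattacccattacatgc
RD29A: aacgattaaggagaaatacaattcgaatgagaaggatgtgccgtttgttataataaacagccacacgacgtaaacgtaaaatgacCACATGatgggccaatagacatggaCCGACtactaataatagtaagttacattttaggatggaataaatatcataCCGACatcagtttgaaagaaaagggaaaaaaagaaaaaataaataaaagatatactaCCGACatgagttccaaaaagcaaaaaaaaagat

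Genes listed as targets of the DREB and CBF factors were read beside the factors themselves. Whether these factors drive each of them in these seedlings was not tested. The dehydration-responsive core was found in 5 of the 11 windows of 250 bases, against 11.9% of all windows. These were the windows of COR15A, RD29A, RD29B, GOLS3 and LTI30. Those of COR15B, COR47, ERD10, KIN1, KIN2 and RAB18 had none, so the RD29A window above does not stand for the list. Of the 11 on the list, 9 were compared; COR15A and COR15B stayed under 1 RPKM. RD29A (AT5G52310), the classical DREB target whose window is shown above, stood at 30.2 RPKM in Col-0 and 7.46 in hls1, 57.7 in ein3 eil1, and 2.78 and 10.4 in pifq and pifq ein3 eil1. As for DREB2A, ein3 eil1 was the highest genotype and pifq the lowest. In hls1 the 2 genes differed: RD29A was lower than in Col-0, whereas DREB2A was not called, at -0.23. In pifq, 5 of the 9 were lower (COR47, ERD10, KIN1, RD29A and RD29B), or 55.6%, against 6.22% of all genes tested. RAB18 was higher, or 11.1%, against 3.39%. The median difference of the 9 was -1.46, beside -0.05 for all genes. The dehydrin gene COR47 had 166 RPKM in pifq against 459 in Col-0. In hls1, 4 were lower (KIN1, KIN2, RD29A and RD29B), or 44.4%, against 4% of all genes tested. None was higher there, against 3.4%. KIN2 stood at 22.2 RPKM in hls1 against 387 in Col-0. KIN1 and KIN2 are close copies, so the division of their reads is uncertain. In ein3 eil1, LTI30 at 14.9 RPKM against 1.66 and RAB18 at 10.7 against 0.485 were higher and none was lower. The higher targets were 22.2% of the 9, against 1.63% of all genes tested, and 2.51% of all genes were lower. After scaling 4 were higher, with RD29A at 1.24 and KIN1 at 1.01 in place of 0.91 and 0.69. Seed genes were also higher there, CRU1, CRU3 and EM1 summing to 8.23 RPKM, compared with 0.356 in Col-0, and their part in the LTI30 and RAB18 values was not tested. In pifq ein3 eil1 against ein3 eil1, 5 of the 9 were lower (KIN1, RD29A, RD29B, LTI30 and RAB18), or 55.6%, against 3.99% of all genes tested. In the same comparison 1 was higher, GOLS3, of raffinose synthesis, or 11.1%, against 4.04%. After scaling 8 were lower, COR47, ERD10 and KIN2 passing the threshold too at -1.05, -1.09 and -1.06. The 3 seed genes were lower in this comparison as well. Against Col-0, pifq ein3 eil1 had 3 lower targets (KIN1, RD29A and RD29B), or 33.3%, against 6.04% of all genes tested. It had 1 higher (GOLS3), or 11.1%, against 3.81%. Against pifq it had 2 higher (RD29A and GOLS3), or 22.2%, against 1.76%, and none lower, against 1.12%.

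**Figure D3:**
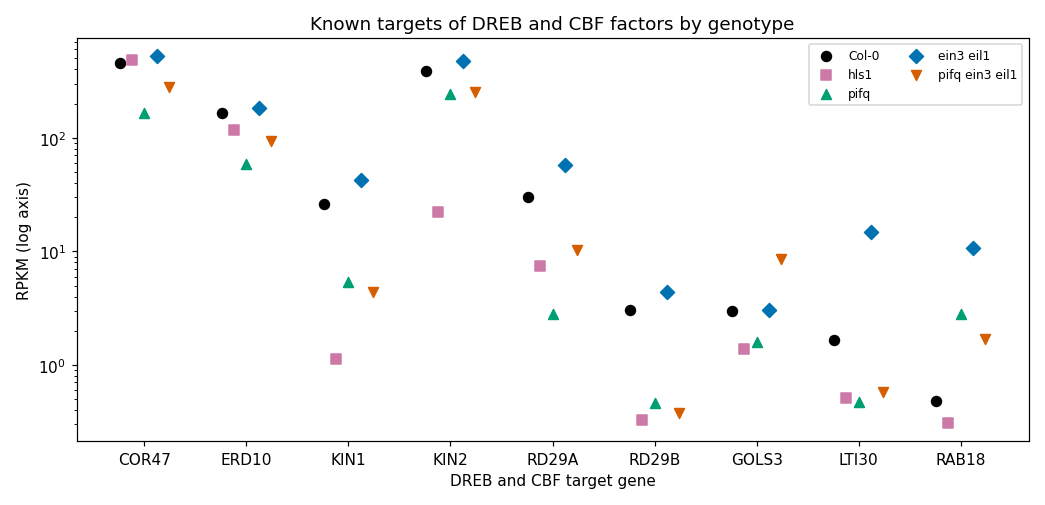
Points give the authors' RPKM (log axis) of the 9 compared DREB and CBF targets (horizontal axis) in each genotype, marked by shape and colour. RD29A ranges from 2.78 RPKM in pifq to 57.7 in ein3 eil1, and KIN2 drops to 22.2 in hls1.

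The CBF genes, master regulators of cold acclimation, were low at this temperature. CBF2 (AT4G25470) stood at 1.56 RPKM in Col-0 and 0.271 in hls1, 3.20 in ein3 eil1, and 1.29 and 2.2 in pifq and pifq ein3 eil1. It was lower in hls1 at a difference of -1.01, which scaling brought to -0.97, under the threshold. CBF1 (AT4G25490) reached 1.11 RPKM in ein3 eil1 and was listed at 0 in hls1 and pifq. RAP2.1 (AT1G46768), a DREB repressor itself induced by DREB factors, stood at 7.11 RPKM in Col-0 and 4.86 in hls1, 5.45 in ein3 eil1, and 3.55 and 3.10 in pifq and pifq ein3 eil1; its difference of -0.98 in the last genotype was just under the threshold. RAP2.4D (AT1G22190) lay between 7.90 and 12.8 RPKM and DREB2C between 0.160 and 1.06, and neither was called. Of the upstream genes, ICE1, an activator of the CBF genes, lay between 29.7 and 46.4 RPKM without a call, and its homologue ICE2 was higher in pifq, at 21.9 RPKM against 9.57. Of the 13 upstream regulators, 4 were lower in ein3 eil1, or 30.8%, against 2.51% of all genes tested. They were EBF1, EBF2 and the mutated genes EIN3 and EIL1 themselves. The same 4 were lower in pifq ein3 eil1 than in Col-0, against 6.04% of all genes tested. The ubiquitin ligase genes DRIP1 and DRIP2, whose products mark DREB2A for degradation, were not called in any comparison.

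In hls1, a CRF and a group X ERF were higher by the most. CRF6 (AT3G61630), a cytokinin-induced factor tied to stress and senescence whose window with a G-box and a GCC core is shown above, stood at 9.33 RPKM in Col-0 and 33.9 in hls1, 8.21 in ein3 eil1, and 12.2 and 11.1 in pifq and pifq ein3 eil1. The hls1 value was above all the others, which lay between 8.21 and 12.2, and its log2 difference from Col-0 was 1.76. RAP2.6L (AT5G13330), known from wound healing and shoot regeneration, stood at 4.10, 18.1, 2.39, 6.87 and 3.16 RPKM, a difference of 1.90 in hls1. ORA59 (AT1G06160), which joins ethylene and jasmonate signals at the defensin genes, stood at 0.0512 RPKM in Col-0 and 1.55 in hls1, 0.326 in ein3 eil1, and 0.749 and 0.668 in pifq and pifq ein3 eil1. Its difference of 1.28 in hls1 rests on a Col-0 value near 0. These 3 higher members were 8.11% of the 37, against 3.4% of all genes tested, and the 1 lower member, CBF2, was 2.70%, against 4%. ORA59 passed the filter only through hls1, so the 8.11% includes a member let in by its hls1 value. After scaling, 3 were higher and 0 lower. The 4 dark-grown marker genes summed to 565 RPKM in hls1 against 3673 in Col-0; there PORA and PORB were lower and PIL1 and HFR1 higher, and their part in these values was not tested. The other CRFs in hls1 lay between 1.34 RPKM (CRF4) and 12.2 (CRF5), with no call.

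The 8 EAR-motif repressors of group VIII were all past the filter. None was called in hls1, where their median difference was -0.54 beside 0.04 for all genes. ERF4 (AT3G15210), a repressor of jasmonate- and ethylene-induced defence genes, stood at 17.0 RPKM in Col-0 and 8.57 in hls1, 15.0 in ein3 eil1, and 23.8 and 20.7 in pifq and pifq ein3 eil1, so that hls1 was lowest. ERF8 (AT1G53170) was lowest in hls1 too, at 8.42 RPKM against 15.8 in Col-0, and ERF12 at 1.18 against 2.75. The values in hls1 differed from Col-0 by -0.91, -0.83 and -0.78 for ERF4, ERF8 and ERF12, each under the threshold. ERF7 and ERF9 were highest in hls1, ERF9 at 3.99 RPKM against 2.04. ERF10 (AT1G03800) was the called member of this group against Col-0: it stood at 3.05 RPKM in Col-0 and 3.53 in hls1, 1.95 in ein3 eil1, and 1.22 and 0.186 in pifq and pifq ein3 eil1, a difference of -1.77 in the last.

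In ein3 eil1, 1 of the 37 members was called. ERF1A (AT4G17500), a GCC-box activator also written ERF-1 and shown above with a G-box, stood at 7.31 RPKM in Col-0 and 7.10 in hls1, 2.68 in ein3 eil1, and 5.07 and 3.26 in pifq and pifq ein3 eil1. Both genotypes without EIN3 and EIL1 were the lowest. Its difference from Col-0 was -1.18 in ein3 eil1, which scaling brought to -0.91, under the threshold, and it was -0.96 in pifq ein3 eil1. No member was higher in ein3 eil1, against 1.63% of all genes tested, and the 1 lower member was 2.70%, against 2.51%; after scaling 0 members were higher and 0 lower, while all genes went from 303 higher and 467 lower to 443 and 208. EBF2 and EBF1, feedback targets of EIN3 outside the family, were lower in ein3 eil1, EBF2 at 7.44 RPKM against 86.1 and EBF1 at 9.48 against 36.1, with and without scaling. In the AP2/ERF genes left out of the member list, 3 of 9 compared were lower in ein3 eil1 (RAP2.2, RAP2.3 and EDF3). They were 33.3% of the 9, against 2.51% of all genes tested, and none was higher, against 1.63%. After scaling, EDF3 was still lower, at -1.07, and RAP2.2 and RAP2.3 were under the threshold at -0.89 and -0.92. In pifq the same list had 2 higher (RAP2.3 and HRE2), or 22.2%, against 3.39% of all genes tested. It had 2 lower (EDF3 and RAV1), or 22.2%, against 6.22%. RAV1 stood at -1.02 there, or -0.95 and no longer called after scaling. In hls1 RAP2.3 was higher, at 192 RPKM against 44.5, or 11.1% of the 9, against 3.4% of all genes tested. None of the 9 was lower there, against 4%.

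CRF2 and CRF5 in ein3 eil1 stayed under the threshold, CRF2 (AT4G23750) at 3.83 RPKM against 7.68 and CRF5 (AT2G46310) at 4.64 against 8.29. CRF2 was highest in pifq, at 10.9 RPKM. CRF1 lay between 1.16 and 2.28 RPKM and CRF3 between 0.550 and 1.87, and neither was called. Over the 6 CRFs the median difference in ein3 eil1 was -0.38, beside -0.29 for all genes.

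Group IX, which holds many GCC-box activators, gave 3 of the 5 higher members in pifq ein3 eil1. ERF105 (AT5G51190), a cold- and stress-induced activator, stood at 2.08 RPKM in Col-0 and 1.84 in hls1, 2.08 in ein3 eil1, and 2.62 and 9.91 in pifq and pifq ein3 eil1. It was higher in pifq ein3 eil1 than in Col-0, pifq and ein3 eil1, by 1.82, 1.59 and 1.83 on the log2 scale. ERF104 (AT5G61600), a substrate of the kinase MPK6 in the response to flagellin, stood at 3.31, 5.02, 2.5, 3.99 and 7.90 RPKM. Its differences in pifq ein3 eil1 were 1.05 against Col-0 and 1.35 against ein3 eil1, and 0.83, under the threshold, against pifq. ERF13 (AT2G44840) stood at 1.2, 0.330, 1.53, 1.41 and 4.57 RPKM, and its differences were 1.34, 1.21 and 1.14 against Col-0, pifq and ein3 eil1. ERF6 (AT4G17490), which curbs leaf growth under osmotic stress, stood at 3.08, 2.77, 2.58, 3.69 and 6.32 RPKM; its difference of 1.03 against ein3 eil1 was brought under the threshold by scaling, to 0.94. For each of these 4 genes pifq ein3 eil1 held the highest of the 5 values. ERF2 and ERF5, of the same group, lay between 0.548 and 2.6 and between 0.804 and 1.88 RPKM with no call.

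**Figure D4:**
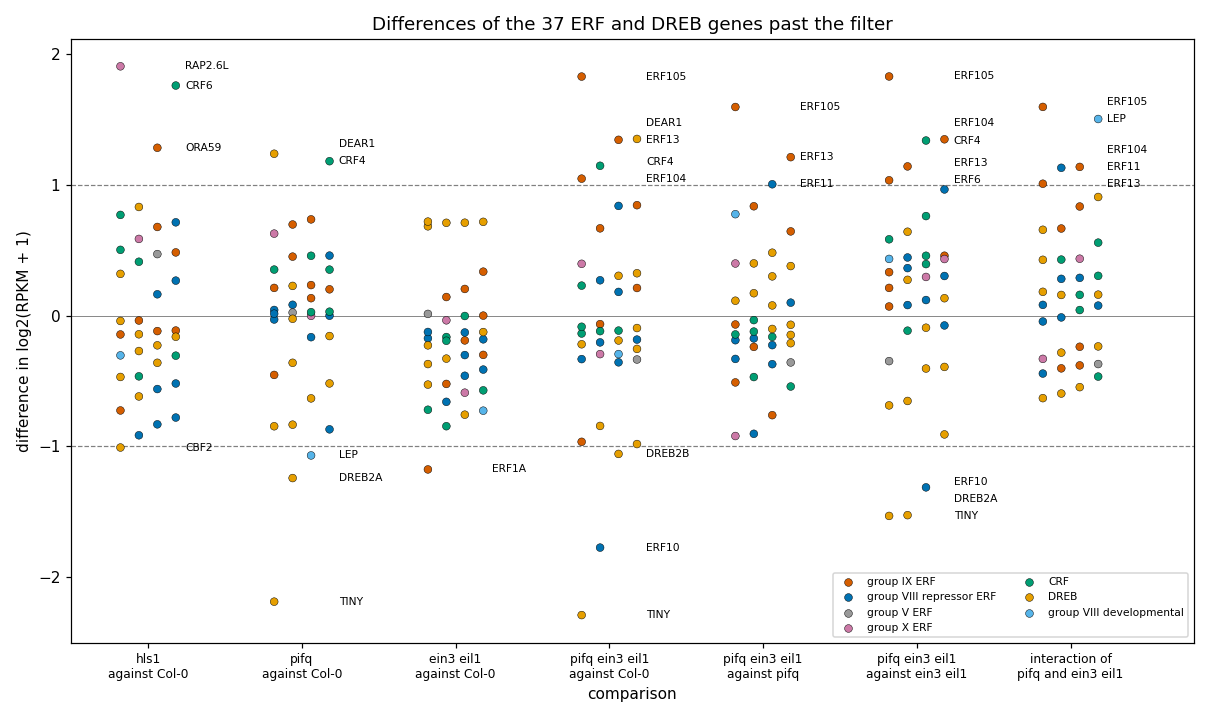
Each point is the difference in log2(RPKM + 1) of 1 of the 37 compared members (vertical axis) in 6 comparisons and the interaction (horizontal axis, points spread sideways for legibility), coloured by branch; dashed lines mark the threshold of 1 and called members are named beside the points. TINY is the lowest point in pifq and in pifq ein3 eil1 against Col-0, and ERF105 is the highest in each comparison of pifq ein3 eil1.

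Against Col-0, pifq ein3 eil1 had 5 higher members (ERF13, ERF104, ERF105, CRF4 and DEAR1), or 13.5%, against 3.81% of all genes tested, and 3 lower (ERF10, TINY and DREB2B), or 8.11%, against 6.04%. After scaling 5 were higher and 2 lower, while all genes went from 38.7% to 51.6% higher among those called. The 8 compared group IX genes had a median difference of 0.75 in pifq ein3 eil1, beside -0.17 for all genes. Against pifq, 3 members were higher (ERF11, ERF13 and ERF105), or 8.11%, against 1.76%, and 0 lower, against 1.12%. ERF11 (AT1G28370), a repressor that lowers ethylene synthesis, reached 1.91 RPKM in pifq ein3 eil1 and stayed at 0.630 or less elsewhere. ERF11 passed the filter only through pifq ein3 eil1. The 8.11% against pifq thus includes a member let in by the value that makes it high. Against ein3 eil1, 5 were higher (ERF6, ERF13, ERF104, ERF105 and CRF4), or 13.5%, against 4.04%, and 3 lower (ERF10, TINY and DREB2A), or 8.11%, against 3.99%. After scaling, 4 were higher and 4 lower, CBF1 being lower and ERF6 no longer called. All genes went from 50.3% to 38.5% higher in this comparison and from 61% to 71.8% against pifq.

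The interaction compares the difference of pifq ein3 eil1 from pifq with that of ein3 eil1 from Col-0. It was 1 or more for 5 members, ERF11, ERF13, ERF104, ERF105 and LEP, or 13.5%, against 3.35% of all genes tested, and -1 or less for 0, against 1.5%. After scaling, which took the share of higher among the calls over all genes from 69% to 53%, the 3 members ERF11, ERF105 and LEP remained past 1, with ERF104 at 0.99 and ERF13 at 0.90. ERF11 passed the filter only through pifq ein3 eil1, at 1.91 RPKM, and LEP only through Col-0, at 1.27. Either value also raises the interaction of its gene, so the 13.5% includes members let in by the value that makes them high. Other rapidly induced stress and touch genes, a list chosen after these values were seen, were high in the same column. Of 8, 6 (ZAT10, ZAT12, WRKY33, WRKY40, SZF1 and TCH3) were higher in pifq ein3 eil1 than in Col-0. They were 75% of the list, against 3.81% of all genes tested, and none was lower, against 6.04%. Against pifq, 3 were higher, or 37.5%, against 1.76%, and 5 after scaling. Against ein3 eil1 the same 6 were higher, against 4.04%, but 3 after scaling. The interaction was 1 or more for 2 (ZAT12 and TCH3), or 25%, against 3.35%. Because the list was chosen after the values, these shares test nothing. The 8, which include WRKY53 and TCH4, summed to 87.1 RPKM in Col-0 and 144 in hls1. In ein3 eil1, pifq and pifq ein3 eil1 the sums were 79.2, 80.8 and 201, and none of the 8 was at 0. The zinc finger gene ZAT12 reached 21.9 RPKM in pifq ein3 eil1 from 7.16 in Col-0, and the calmodulin-like touch gene TCH3 to 98.0 from 46.7. Their part in the ERF values was not tested. The kinase genes MPK3 and MPK6 were not called in any comparison, MPK3 having 21.8 RPKM in pifq ein3 eil1 against 13.0 in Col-0.

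ABR1 (AT5G64750), a repressor of abscisic acid responses, passed the filter through hls1, at 1.11 RPKM against 0.409 in Col-0, and was not called. Across the 37 members the highest value fell in hls1 for 13, or 35.1%, where 39.5% of all genes tested had theirs. It fell in Col-0 for 8, or 21.6%, against 19.8%, in pifq for 7, or 18.9%, against 27.2%, in pifq ein3 eil1 for 6, or 16.2%, against 8.87%, and in ein3 eil1 for 3, or 8.11%, against 4.55%. The lowest fell in ein3 eil1 for 13, or 35.1%, where 42% of all genes tested had theirs, and in hls1 for 11, or 29.7%, against 14.9%.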

How the data were processed

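RNA from 10 samples, 2 for each of 5 genotypes, was sequenced as paired 150 nt reads from a directional kit, per the series' design text. TAIR10 and BWA 0.7.7 are named in the submitters' processing notes; how reads were counted, by which strand and over which lengths, is not given in the sources used here. Per the file headers the deposited values are RPKM, 1 column per genotype, each taken as the authors' mean of 2 samples, since 55% to 55.7% of values above 0 end in the digit 5. The deposited gene descriptions were not used: of 37 members with one, 8 named an AP2/ERF protein.

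From these values log2(RPKM + 1) differences were computed with Python 3.11.15, pandas 2.3.3 and numpy 2.4.6, for genes of 1 RPKM or more in at least 1 genotype. The limma test planned for values per sample could not be run on 1 value per genotype. The computation was tested on simulated data. Multiplied by RefSeq transcript length, the smallest values piled up at 1 step per genotype. If a step is 1 read in 1 of 2 equally deep libraries, each library held roughly 11.2 to 14.5 M reads, an estimate from which no interval was computed.

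Members, lists and rules were chosen with earlier results of these data known. Values in all genotypes were given for members called with 5 RPKM or more in the higher genotype and for the 5 highest by mean; further members were named after their values were seen, and so were the stress and touch genes. All 50 members and 32817 of the identifiers matched RefSeq's TAIR10.1 gene table, and 742 did not. Alternatives were pseudocounts of 0.5 and 0.1, no filter, a minimum of 5 RPKM and median-of-ratios scaling.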

Additional observations from a re-analysis of the deposited data

Results flagged for a closer look

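For 4 members the effect of losing EIN3 and EIL1 had opposite signs in seedlings with and without the PIFs, as the values were deposited, with an interaction of 1 or more; none of these differences was tested, since each group has 1 value. ERF104 differed by -0.30 in ein3 eil1 from Col-0 and by 0.83 in pifq ein3 eil1 from pifq, an interaction of 1.13. The median gene differed by -0.29 in the first comparison, so the negative sign of ERF104 is the shift of the whole column. After median-of-ratios scaling its differences were -0.05 and 0.94, and its interaction was 0.99, under the threshold. LEP differed by -0.73 and 0.77, an interaction of 1.5. ERF11 differed by -0.13 and 1.0, an interaction of 1.13, but after median-of-ratios scaling the first difference was -0.0068. ERF105 had no direction to speak of in the first comparison, at 2.08 RPKM in both Col-0 and ein3 eil1, and differed by 1.59 in the second, an interaction of 1.59; after scaling its differences were 0.23 and 1.70, of the same sign, so opposite signs do not hold for it. For ERF11 and LEP the loss of the PIFs likewise had opposite signs with and without EIN3 and EIL1. LEP and ERF11 reached 1 RPKM in a single genotype each, Col-0 and pifq ein3 eil1.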

How the results depend on the processing

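Of the 14 called differences of the 8 members named by rule, 12 kept their call after median-of-ratios scaling and none reversed. ERF1A in ein3 eil1 and ERF6 against ein3 eil1 lost theirs, at -0.91 and 0.94. The other alternatives could not take a call from these 8 members. A smaller pseudocount widens every difference, and members were named by this rule only at 5 RPKM or more. Counts of called members were small and moved more. With a pseudocount of 0.5, hls1 had 5 higher and 2 lower in place of 3 and 1, and pifq 3 and 5 in place of 2 and 3. In ein3 eil1, 2 were higher and 2 lower in place of 0 and 1. Against Col-0, pifq ein3 eil1 had 7 higher and 5 lower in place of 5 and 3. It had 4 and 2 against pifq in place of 3 and 0. Against ein3 eil1 it had 6 and 4 in place of 5 and 3. The interaction counts did not change. With a pseudocount of 0.1, which gives more weight to genes near 0, hls1 had 7 higher and 5 lower, pifq 4 and 6, and ein3 eil1 4 and 3. Under the same setting pifq ein3 eil1 had 9 higher and 6 lower than Col-0. It had 5 and 3 against pifq, and 8 and 5 against ein3 eil1. The interaction was higher for 7 and lower for 3. With a minimum of 5 RPKM, which leaves fewer genes, hls1 had 2 higher and 0 lower, and pifq 0 higher and 2 lower. The counts of ein3 eil1 did not change. Here pifq ein3 eil1 had 2 higher and 1 lower than Col-0. It had 1 and 0 against pifq, and 3 and 2 against ein3 eil1. The interaction was higher for 2 and lower for 0. After median-of-ratios scaling, hls1 had 0 lower, ein3 eil1 0 lower and the interaction 3 higher. Against Col-0, pifq ein3 eil1 then had 2 lower, and against ein3 eil1 it had 4 higher and 4 lower. The other counts did not change with scaling. Leaving out the filter changed no count. For the 6 comparisons this was fixed beforehand, since genes under 1 RPKM everywhere cannot differ by 1 in log2(RPKM + 1). No paired analysis was possible because the table holds 1 value per genotype; replicates could not be left out for the same reason. Without replicates, biological variation limits every value above, and most of all those under 1 RPKM.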
